A study of Mus musculus with 35 samples.

Results

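The nuclear genes for the subunits of oxidative phosphorylation were followed in RNA-seq libraries of sorted pancreatic ductal adenocarcinoma (PDAC) cells, across tumor site, day and *Smad4* label. Genes were taken by symbol (the *Ndufa*, *Ndufb*, *Ndufc*, *Ndufs* and *Ndufv* series, *Sdha* to *Sdhd*, *Uqcr*, *Cox4* to *Cox8* and *Atp5*), without pseudogenes and *Ndufaf* assembly factors, and were kept with at least 10 counts in at least 10 of 35 libraries. Of the 53465 genes in the table, 83 had such a symbol and 77 were kept, which are 37 for complex I, 4 for complex II, 8 for complex III, 12 for complex IV and 16 for complex V. The 6 that fell under the minimum were the tissue-restricted subunits *Cox4i2*, *Cox6a2*, *Cox6b2*, *Cox7b2*, *Cox8b* and *Cox8c*, whose highest count in any library was 27, 4, 13, 0, 4 and 1. Complexes were assigned by symbol alone, so *Ndufa4*, known as a cytochrome *c* oxidase subunit, was counted in complex I, and *Atp5s*, which is not a synthase subunit, in complex V.

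The cells carried *Ptf1a-Cre*, an *LSL-rtTA3-IRES-mKate2* allele and a Dox-inducible, GFP-linked shRNA against *Smad4*, and grew in nude mice, which lack T cells. Primary tumors came from injection into the pancreas, liver metastases from injection into the spleen and lung metastases from injection into the tail vein, with 100000, 400000 and 250000 cells. Dox was withdrawn, where it was, 4, 5 or 6 weeks after injection, sites in the same order, so that site cannot be told apart from the cell number, the route or the time since injection. By the labels and the study's methods, hosts of libraries labelled Smad4 off stayed on Dox. Hosts of libraries labelled Smad4 on were, by the same sources, taken off Dox 7 or 14 days before mKate2-positive cells were sorted. The day 7 groups held 3 pancreas, 2 liver and 4 lung libraries labelled off and 2, 3 and 2 labelled on. The day 14 groups held 2, 3 and 4 labelled off and 3, 3 and 4 labelled on, sites in the same order. Cre expression from *Ptf1a* restricts recombination to the pancreatic lineage, and the labels do not say how many tumor cell lines the libraries represent. The labels name separate mice within each group.

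Oxidative phosphorylation makes ATP in mitochondria. Complexes I (NADH dehydrogenase) and II (succinate dehydrogenase) pass electrons to ubiquinone, complex III passes them to cytochrome *c* and complex IV to oxygen. Complexes I, III and IV pump protons across the inner membrane, and complex V uses their return flow to make ATP. Most subunits are encoded in the nucleus and a few, the catalytic cores of complexes I, III and IV among them, in mitochondrial DNA. The transcription factors NRF1, the ETS protein GABP and YY1 are known to act at promoters of the nuclear genes.

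Promoter sequence is shown because members of 4 complexes carry the letters known for these factors in front of their start. Of the 77 genes, 65 matched 70 promoter windows of RefSeq (GRCm38.p6), each from 250 bases before to 50 bases after a start. The NRF1 motif (GCGCA, any base, then GCGC), sought on both strands like the others, was in 18 of the 70 windows (25.7%, 17 genes), and in 4.6% of all 32851 windows and 6.38% of the 21263 windows of coding genes. The letters AAGATGGC known for YY1 were in 10 windows (14.3%), against 2.75% of all windows, and the ETS letters CCGGAAGT were in 5 (7.14%), against 3.89%. In all 31 windows held 1 or more of the 3 motifs and 2 held more than 1. The lines below give stretches from the strand of each gene, with the motif in capitals, for succinate dehydrogenase subunit *Sdhd* (chr9:50603889-50603958, minus strand), synthase stalk subunit *Atp5h* (chr11:115420021-115420090, minus), complex I accessory subunit *Ndufa11* (chr17:56717672-56717741, plus) and complex III subunit *Uqcr11* (chr10:80406850-80406917, minus). The first 3 hold the NRF1 letters and the last the ETS letters, and all lie upstream of the gene's start in the count table.
Sdhd: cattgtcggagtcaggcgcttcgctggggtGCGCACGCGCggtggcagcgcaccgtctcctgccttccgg
Atp5h: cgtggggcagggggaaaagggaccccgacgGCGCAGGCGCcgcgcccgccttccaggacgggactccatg
Ndufa11: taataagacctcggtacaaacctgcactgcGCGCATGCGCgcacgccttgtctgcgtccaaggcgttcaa
Uqcr11: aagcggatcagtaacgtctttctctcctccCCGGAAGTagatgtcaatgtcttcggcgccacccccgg
The motif ends 69, 131, 50 and 58 bases before the RefSeq start in these genes, in that order. A match to these letters is a description of the sequence and was not set against binding of the factors.

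Libraries held 11.9 to 43.6 M counts, so that 3 counts correspond to 0.0689 to 0.252 CPM (counts per M counts of the library), a floor that covers counting error only. *Smad4* mRNA itself lay against the labels, with 14.8 to 22.4 CPM where the label was on and 69.9 to 143 CPM where it was off, and every label difference below is labelled on minus labelled off. Whether the labels match the Dox history of the libraries was not tested, so the direction of label differences relative to Dox is uncertain. The summed level of 7 tumor epithelium markers was 2750 to 8020 CPM for pancreas, 4030 to 16600 for liver and 6290 to 14800 for lung libraries. The 7 fibroblast markers summed to 8790 to 24300 CPM in the pancreas, 159 to 1990 in the lungs and 255 to 4310 in the liver apart from 1 library. That library, Smad4 off replicate 2 of day 7, was the one labelled paired-end, and held 35800 CPM of fibroblast and 363 CPM of acinar markers. In 10 libraries, 4 of liver and 6 of lungs, the mitochondrial gene *mt-Co3* had counts, whereas the other 25 had none, and 1 or 2 of the 10 fell in every group of liver or lungs. The comparisons below were therefore also made within these sets of libraries. In bulk samples, fewer cells of a type and less RNA per cell cannot be told apart.

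The 77 genes spanned a wide range of levels, in nearly the same order at each site. Per kilobase of exon, the median level over the 35 libraries was highest for *Cox8a*, *Atp5b*, *Atp5a1*, *Cox4i1*, *Cox6b1* and *Cox6a1* (322, 285, 267, 260, 238 and 200 CPM per kb). *Cox8a*, *Cox4i1*, *Cox6a1* and *Cox6b1* are the broadly expressed forms of nuclear complex IV subunits, and *Atp5a1* and *Atp5b* encode the alpha and beta subunits of the catalytic head of ATP synthase. The median member lay at 39.1 CPM per kb in complex I, 51.0 in complex II, 78.3 in complex III, 104 in complex IV and 66.0 in complex V. At the low end, the synthase subunit *Atp5l* was at 0.373 CPM per kb, *Ndufa4l2*, a hypoxia-inducible paralog of *Ndufa4*, at 0.436 and the heart and muscle form *Cox7a1* at 2.42. The counts of *Ndufa4l2* were 1 to 66 and those of *Cox7a1* 7 to 61 per library, just inside the minimum. Over the 77 genes, the Spearman correlation of median levels was 0.988 for pancreas with liver, 0.965 for pancreas with lungs and 0.987 for liver with lungs, as a description across genes that share libraries.

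Together the 77 genes took 0.715 to 1.22% of the counts of a library. In the liver the share was 1.0 to 1.22% in the single-end libraries and 0.715% in the paired-end library. In the lungs it was 0.761 to 1.1% (median 0.887%) and in the pancreas 0.78 to 0.978% (median 0.86%). With the paired-end library the liver range held the whole range of the lungs, and the single-end liver libraries overlapped with the lungs through lung libraries Smad4 on, day 14, replicate 1, at 1.1%, and Smad4 off, day 7, replicate 4, at 1.0%. In the pancreas, the 5 libraries of day 7 (0.78 to 0.827%) lay below the 5 of day 14 (0.893 to 0.978%). Complex V genes took the largest part of these shares, at 0.309 to 0.389% of counts in the pancreas.

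**Figure D1:**
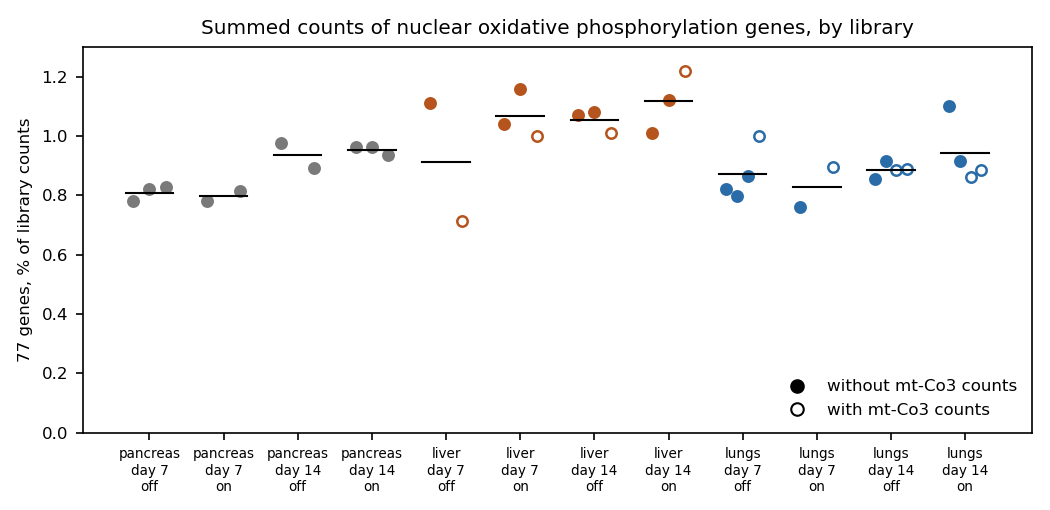
Summed counts of the 77 genes as a percentage of all counts of each library (y axis), by site, day and Smad4 label (x axis). Filled points are libraries without mt-Co3 counts, open points those with them, and bars are group means; the lowest point, at 0.715%, is the paired-end liver library.

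In liver metastases, many genes of oxidative phosphorylation were higher than in lung metastases, each by less than a fold of 2. Of the 77 genes, 44 were higher in the liver at an adjusted p under 0.05 and 0 were lower, beside 11.0% and 9.36% of all genes. The median difference was 0.31 on the log2 scale against 0.02 over all genes tested, 76 of the 77 differences were above 0, and no called gene reached a fold of 2, beside 8.57% of all genes. The exception below 0 was complex I subunit *Ndufa9*, at -0.14, which was picked out after its value was seen. In lung library Smad4 on, day 7, replicate 2, *Ndufa9* was at 373 CPM. The other lung libraries were at 59.1 to 117 CPM and the liver libraries at 73.3 to 109 CPM. The test was edgeR's quasi-likelihood test over all 35 libraries, averaging over day and label, with Benjamini-Hochberg adjustment over all genes. Without liver library Smad4 off, day 7, replicate 1, which leaves the paired-end library alone in its group, 12 genes were called higher and 0 lower, and without lung library Smad4 on, day 7, replicate 1, 25 were called higher and 1 lower.

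In complex I, 19 of 37 genes were called higher in the liver, with a median difference of 0.31. *Ndufa5* (ENSMUSG00000023089, chr6:24518666-24528013 of GRCm38, minus strand), an accessory subunit of the arm that protrudes into the matrix, had the lowest p of all members. Its level was 20.5 to 50.4 CPM in the liver (median 37.4), 18.7 to 32 CPM in the lungs (median 22.4) and 25.2 to 52.8 CPM in the pancreas (median 35.3). The lowest liver value came from the paired-end library, and the other liver libraries were at 27.7 CPM or more, so that the ranges of liver and lungs met at their ends. The liver-minus-lung difference of *Ndufa5* was 0.63 on the log2 scale (SE 0.10, adjusted p = 5.79e-05). *Ndufb10*, an accessory subunit of the membrane arm, was at 56.1 to 100.0 CPM in the liver (median 78.1) and 44.7 to 67.8 CPM in the lungs (median 54.8), a difference of 0.50 (SE 0.08, adjusted p = 0.000103). Among core subunits of the matrix arm, *Ndufs1* was called (0.20, adjusted p = 0.011) and *Ndufv1*, which binds NADH, was not (0.13, adjusted p = 0.353). *Ndufa1* (0.46) and *Ndufb8* (0.36), accessory subunits of the membrane arm, were called as well.

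**Figure D2:**
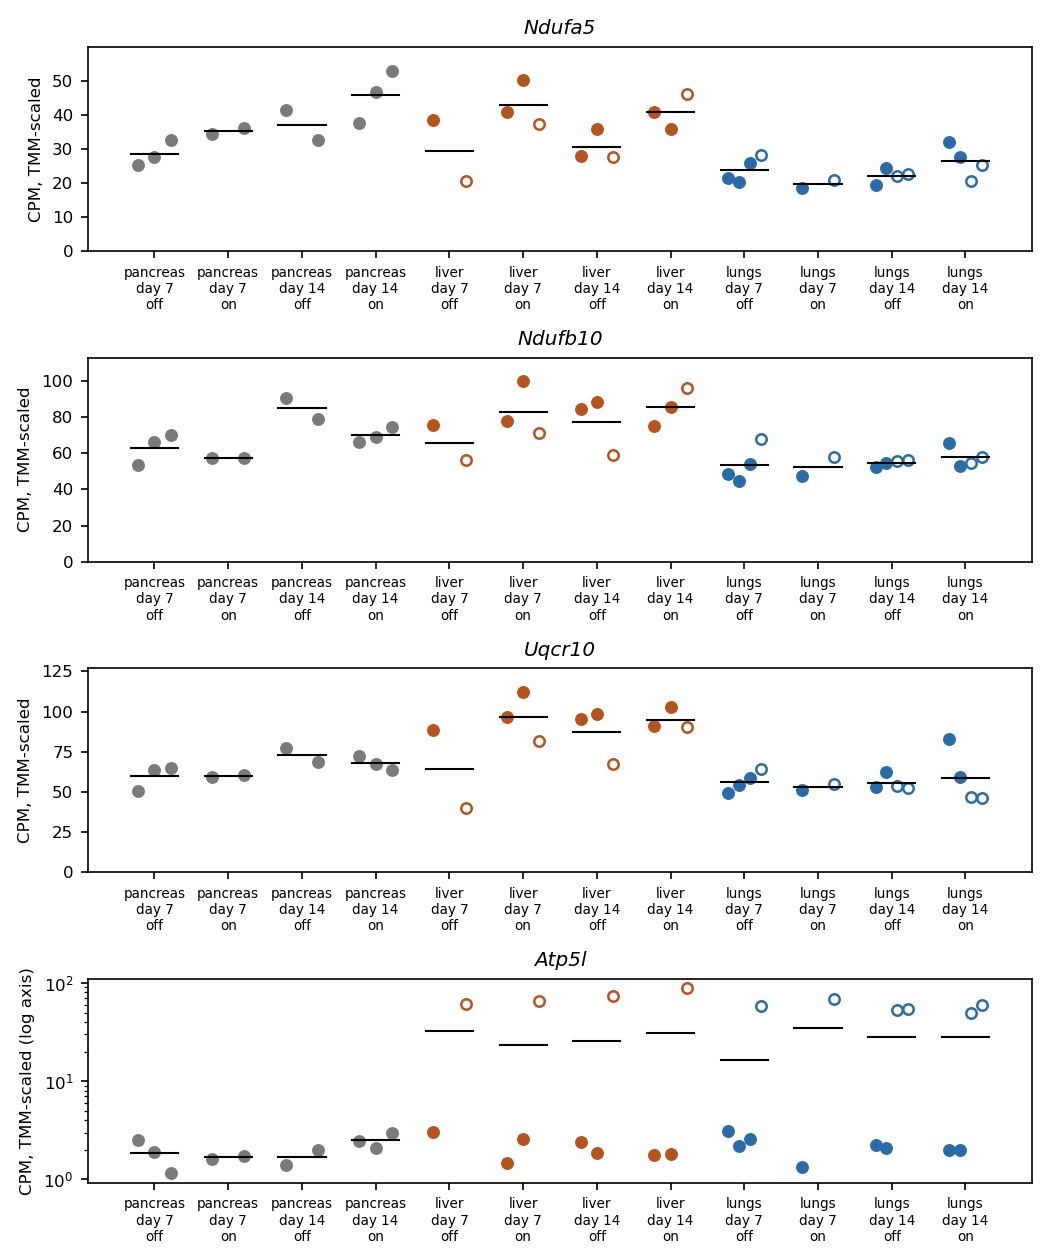
Level in CPM after TMM scaling (y axis, linear for Ndufa5, Ndufb10 and Uqcr10, logarithmic for Atp5l) of 4 genes in each library, by site, day and Smad4 label (x axis). Filled points are libraries without mt-Co3 counts, open points those with them, and bars are group means; liver points lie mostly above lung points in the first 3 panels, and in the fourth the open points, at 49.9 to 89.3 CPM, stand apart from the filled ones.

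Complex III had the largest share of called genes, 7 of 8, with a median difference of 0.38. *Uqcr10* (ENSMUSG00000059534, chr11:4701973-4704342 of GRCm38, minus strand), a small subunit, was at 39.9 to 112 CPM in the liver (median 91.1) and 46.1 to 83.2 CPM in the lungs (median 53.9). The lowest liver value was again that of the paired-end library, and the highest lung value that of Smad4 on, day 14, replicate 1. The difference of *Uqcr10* was 0.60 (SE 0.11, adjusted p = 0.00028). Core subunits differed less, with 0.39 for *Uqcrc2* (adjusted p = 0.000488), 0.30 for the Rieske iron-sulfur protein *Uqcrfs1* (adjusted p = 0.00179) and 0.20 for *Uqcrc1* (adjusted p = 0.0426).

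In complex V, 12 of 16 genes were called higher in the liver (median 0.32). The catalytic subunits differed by 0.28 (*Atp5a1*, adjusted p = 0.000611) and 0.30 (*Atp5b*, adjusted p = 0.00199) and the epsilon subunit *Atp5e* by 0.43 (adjusted p = 0.00488). *Atp5a1* was at 862 to 1080 CPM in the liver (median 968) and 687 to 915 CPM in the lungs (median 825). The ring subunit *c* has 3 genes with different leader peptides and the same mature protein. Of these, *Atp5g3* was called (0.23, adjusted p = 0.00349), whereas *Atp5g1* differed by 0.00 and *Atp5g2* by 0.02, both with adjusted p above 0.98.

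In complex IV, 5 of 12 genes were called (median 0.31). *Cox7a2* (0.55, adjusted p = 0.00575), *Cox6b1* (0.56, adjusted p = 0.0119), *Cox5a* (0.28, adjusted p = 0.0232) and *Cox4i1* (0.34, adjusted p = 0.0368), all broadly expressed subunits, were among them. *Cox6a1* (0.12), *Cox8a* (0.19), *Cox5b* (0.28), *Cox7a2l* (0.19) and the muscle form *Cox7a1* (0.03) were not called. In complex II, 1 of 4 genes was called. It was *Sdhd*, a membrane anchor of succinate dehydrogenase, at 84.6 to 200 CPM in the liver (median 164) and 87.5 to 167 CPM in the lungs (median 114), with a difference of 0.47 (SE 0.10, adjusted p = 0.00199). The flavoprotein *Sdha* (0.17, adjusted p = 0.0623), the iron-sulfur subunit *Sdhb* (0.20, adjusted p = 0.0577) and the other anchor *Sdhc* (0.16, adjusted p = 0.0992) were not called.

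**Figure D3:**
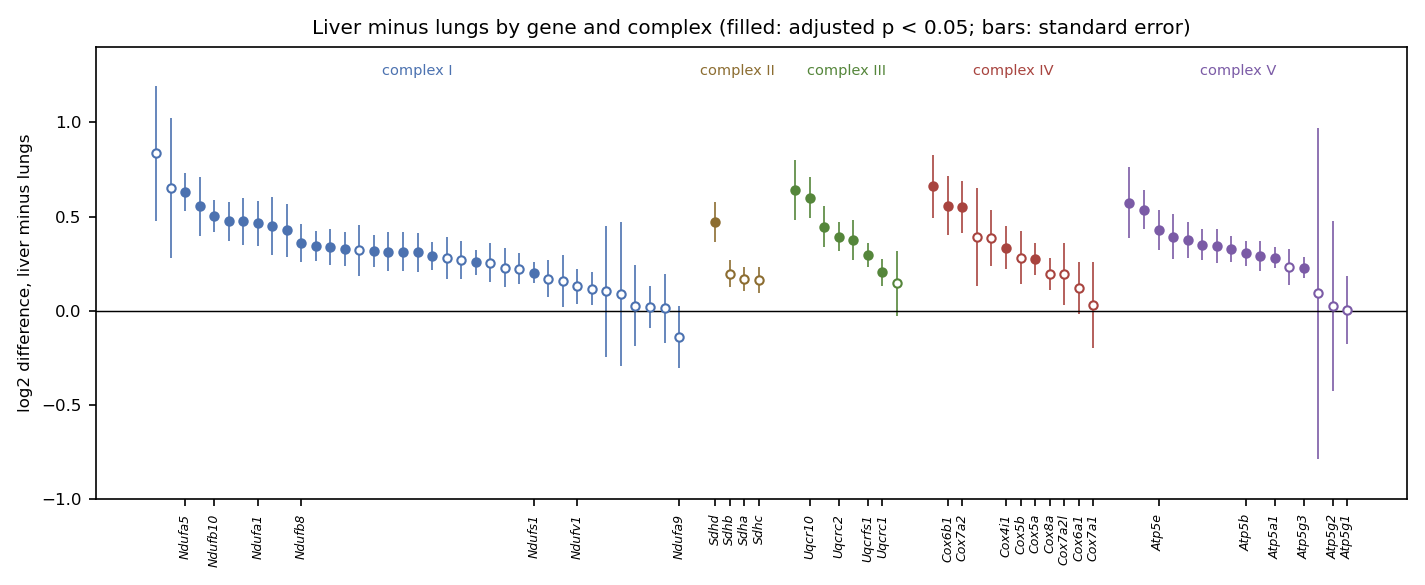
Liver-minus-lung difference on the log2 scale (y axis) for each of the 77 genes (x axis), ordered by complex and size, with the genes described for this comparison labelled. Points are edgeR estimates and bars 1 standard error, filled points have an adjusted p under 0.05 (44 genes, all above 0), and Ndufa9 is the point below 0.

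The liver-lung difference was seen in each combination of day and label, and its size varied with the set of libraries. The liver mean was the higher one for 66 of 77 genes on day 7 labelled off (median 0.19), 71 on day 7 labelled on (0.43), 70 on day 14 labelled off (0.29) and 73 on day 14 labelled on (0.33), where 49.6 to 52.9% of all genes were higher in the liver. On day 7 labelled off, 1 of the 2 liver libraries was the paired-end one, and without it the count was 72 and the median 0.36. With libraries without *mt-Co3* counts, which leaves 1 to 3 libraries a group, the median was larger in 3 of these combinations (0.53, 0.66 and 0.44) and smaller on day 14 labelled on, at 0.18 with 65 genes higher. In the 25 libraries without *mt-Co3* counts, 66 genes were called higher in the liver and 0 lower (median 0.48), beside 19.4% of all genes called higher. Every liver library exceeded every lung library for 17 of the 77 genes within the sets of 7 and 8 such libraries, beside 2.15% of all genes, and for none of the 77 was the order reversed. Among the 4 and 6 libraries with such counts, 2 of the 77 had no overlap in this direction, beside 3.15% of all genes. In the 10 libraries with *mt-Co3* counts, 3 genes were called higher and 1 lower (median 0.09), beside 15.5% of all genes called in either direction. Without the paired-end library, 9 of the 77 genes were called higher among those libraries (median 0.26), beside 1482 of all 16868 genes tested. This fit had organ, day and label as separate terms in place of groups. The fits thus differed in the model as well as in that library.

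A term for organ by library set, added after these values were seen, was past the threshold for 4 of the 77 genes, a share no larger than the 6.33% of all genes called lower. The members' median for this term was -0.37, against -0.03 over all genes, with 6 of 77 values above 0. With an unadjusted p under 0.05 (edgeR), 33 members were lower and 1 higher, beside 2859 and 1743 of 17163 genes. The liver-lung difference was smaller in the libraries with *mt-Co3* counts for *Cox6c* (difference of differences -0.72), *Ndufs4* (-0.67), *Ndufb7* (-0.64) and *Ndufa7* (-0.61), with adjusted p of 0.0447, 0.0381, 0.0425 and 0.0466 (edgeR). *Ndufs4*, needed for the assembly of complex I, was at 77.3 to 93.9 CPM in the liver and 46.0 to 76.9 CPM in the lungs without *mt-Co3* counts, and at 32.8 to 53.4 and 34.7 to 50.7 CPM with them. Without the paired-end library, 0 of the 77 genes were called for this term in edgeR, beside 1027 of all 18134 genes tested. At an unadjusted p under 0.05, 16 of the 77 were lower and 1 higher, beside 2689 and 1678 of all genes. Several other measures moved with organ or set. Against the lungs, fibroblast markers were called higher in the liver for 6 of 7 genes, endothelial markers lower for 5 of 5 and lung epithelial markers lower for 5 of 6, of which surfactant genes *Sftpc* and *Sftpa1* had no counts in any pancreas library. Of all genes, 11.0% were called higher and 9.36% lower. Fibroblast markers summed to 35800 CPM in the paired-end liver library. The other liver libraries held 255 to 4310 CPM of them and the lung libraries 159 to 1990 CPM, so that these overlapped. Cytosolic ribosomal protein genes took 6.86 to 9.8% of counts in the 10 libraries with *mt-Co3* counts, against 3.68 to 8.79% in the other liver and lung libraries. Their part in the differences was not tested.

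Between the library sets themselves, differences of individual members ran from -1.88 to 4.91 on the log2 scale. In the 25 liver and lung libraries, 21 of the 77 genes were higher and 17 lower in libraries with *mt-Co3* counts than in those without, beside 34.6% of all genes called, with a median of 0.07. *Atp5l* (ENSMUSG00000038717, chr9:44912557-44920742 of GRCm38, minus strand) was at 49.9 to 89.3 CPM in the 10 libraries with *mt-Co3* counts and at 1.35 to 3.1 CPM in the other 15, a difference of 4.91 (SE 0.13, adjusted p = 1.43e-16). In counts this was 836 to 1720 reads against 17 to 133. The subunit *c* gene *Atp5g2* was at 110 to 168 against 23.4 to 41.3 CPM (difference 2.25) and the complex I gene *Ndufs5* at 21.6 to 38.7 against 6.17 to 12.2 CPM (1.72). In the opposite direction, the complex I gene *Ndufb2* was at 2.77 to 6.56 against 9.02 to 24.3 CPM (-1.88), *Uqcrh*, the hinge protein of complex III, differed by -0.69 and *Sdhd* by -0.46. The groups did not overlap for 7 genes above (*Atp5l*, *Atp5g1*, *Atp5g2*, *Ndufs5*, *Ndufb4*, *Ndufb6* and *Cox7c*, of which the last 3 were named after their values were seen) and for *Ndufb2* below, beside 4.4% and 0.69% of all genes.

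The genes that differed most between the sets were ones that share sequence with other genes. Of the 77, 40 had no 75-base stretch, the length of a read, in common with an annotated transcript of another gene, and 37 had at least 1. Differences between the sets ran from -0.69 to 0.70 in the 40 and from -1.88 to 4.91 in the 37, and all 6 that were called with a fold over 2, beside 9.99% of all genes, were in the 37. The Spearman correlation of the shared percentage with the difference was 0.365 over the 77 genes, as a description. Between liver and lungs, 22 of the 40 genes (median 0.29) and 22 of the 37 (median 0.33) were called higher in the liver. The 6 genes called with a fold over 2 between the library sets were *Atp5l*, *Atp5g2*, *Ndufs5*, *Ndufb2*, *Ndufb4* and *Cox7c*. A larger shared percentage did not always go with a larger difference. *Atp5l* (6.16% shared) and *Ndufb2* (3.97%) shared little, whereas *Atp5o* (34.2%) differed by -0.22 and *Ndufa13* (25.6%) by 0.06, the last 2 picked after their values were seen. Reads of the 37 genes could be divided among genes, their values are uncertain to that extent, and the part of this in the differences was not tested.

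**Figure D4:**
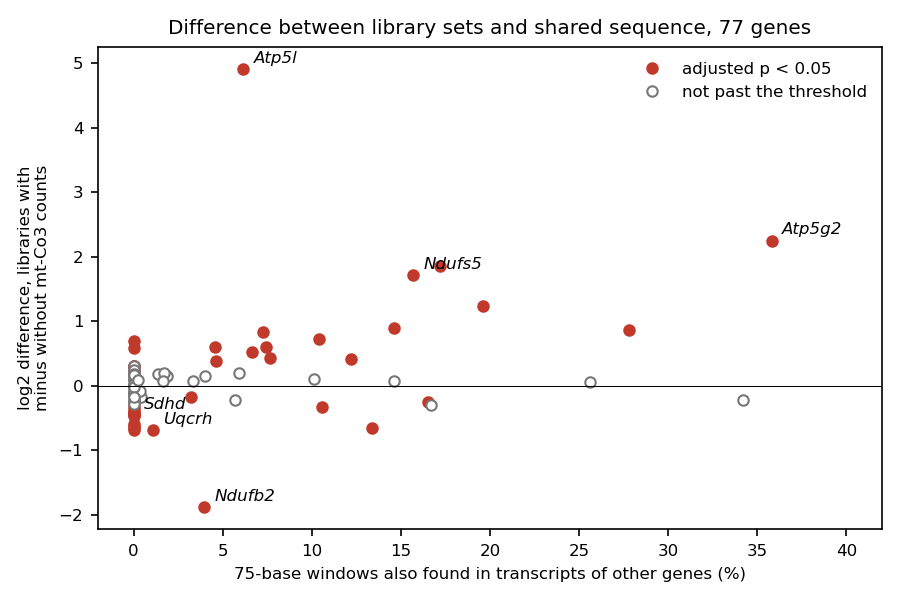
Difference between liver and lung libraries with and without mt-Co3 counts on the log2 scale (y axis) against the percentage of a gene's 75-base windows also found in transcripts of other genes (x axis), for the 77 genes. Red points have an adjusted p under 0.05; genes at 0% lie within -0.69 to 0.70 and Atp5l is highest at 4.91.

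A smaller number of these genes was higher in liver metastases than in primary tumors. Of the 77, 32 were higher in the liver and 0 lower, beside 25.6% and 20.8% of all genes, with a median of 0.26 against 0.05 over all genes. The called genes were 6 of 37 in complex I, 3 of 4 in complex II, 6 of 8 in complex III, 7 of 12 in complex IV and 10 of 16 in complex V. *Uqcrfs1* was at 80.1 to 149 CPM in the liver (median 126) and 74.8 to 95.3 CPM in the pancreas (median 84.4), a difference of 0.54 (SE 0.07, adjusted p = 7.2e-07). *Uqcrc1* was at 214 to 297 against 140 to 204 CPM, with no overlap, and differed by 0.56 (SE 0.08, adjusted p = 1.84e-06). *Atp5g3* (0.37), *Cox5a* (0.58), *Ndufv1* (0.55) and *Atp5a1* (0.36) were also called, while *Ndufa5* (-0.03) and *Cox7a2* (-0.09) were not. With libraries without *mt-Co3* counts only, which is the state of all pancreas libraries, 55 genes were called higher and 0 lower, beside 28.3% of all genes called higher.

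Between lung metastases and primary tumors, members were called in both directions at shares near those of all genes. In the lungs 16 genes (20.8%) were higher and 23 (29.9%) lower than in the pancreas, beside 27.1% and 21.1% of all genes, with a median of -0.05. In complex I, 4 genes were higher and 13 lower. *Ndufa5* was lower in the lungs (-0.66, SE 0.10, adjusted p = 9.5e-06), as were *Ndufv3* (-0.44) and *Cox7a2* (-0.64), whereas *Ndufv1* (0.42), *Uqcrc1* (0.36) and *Uqcrfs1* (0.25) were higher. *Ndufa4l2* was at 0.0661 to 0.997 CPM in the lungs and 0.23 to 2.05 CPM in the pancreas, a difference of -1.10 (SE 0.38, adjusted p = 0.0198), at counts near the floor. Without the libraries with *mt-Co3* counts, 8 genes were higher and 36 lower, beside 24.5% and 26.4% of all genes, so that the balance of directions depended on the set. Without pancreas library Smad4 off, day 14, replicate 1, 11 were higher and 14 lower. All 7 fibroblast markers were called lower in liver and in lungs than in the pancreas, beside 20.8% and 21.1% of all genes called lower. The part of these markers in the differences was not tested. The 3 comparisons of sites share libraries with one another.

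Few of these genes differed between the *Smad4* labels. In the pancreas on day 7, 0 of 77 genes were called, beside 2.24% of all genes, and 1 was higher and 3 lower at an unadjusted p under 0.05, beside 23.1% of all genes. Of liver genes on day 7, 0 were called (beside 0.444%) and 0 had an unadjusted p under 0.05 (beside 27.1%), and on day 14 both counts were 0 again (beside 0.0% and 9.68%). For the lungs on day 7, 0 of 76 genes tested were called (beside 0.0%) and 1 had an unadjusted p under 0.05 (beside 5.22%), and on day 14 both counts were 0 (beside 0.0271% and 10.1%). These calls are edgeR's, and DESeq2 called 0 members in the same 5 comparisons. Median differences of the members in these comparisons were 0.00 for pancreas, 0.14 and 0.05 for liver on days 7 and 14, and 0.00 and 0.07 for lungs. Their signs were not stable. When single libraries were left out, the median ran from -0.04 to 0.03 in the pancreas on day 7, from -0.05 to 0.41 in the liver on day 7, from -0.05 to 0.12 in the liver on day 14, from -0.27 to 0.19 in the lungs on day 7 and from -0.01 to 0.13 in the lungs on day 14. The ends for lungs on day 7 came without Smad4 on replicate 2 and replicate 1, and the liver turned below 0 without the paired-end library on day 7 and without replicate 3 of either label on day 14. The difference of label responses between liver and lungs was called by edgeR and by DESeq2 for 0 genes on day 7 (beside 1.86% of all genes in edgeR) and on day 14 (beside 0.0%). At an unadjusted p under 0.05, 1 member differed on day 7 and 0 on day 14, beside 21.1% and 3.01% of all genes. Without liver library Smad4 off, day 7, replicate 1, 3 genes were called higher in the liver on day 7 and 8 for the difference of responses. Without lung library Smad4 on, day 7, replicate 1, 1 gene was called in each of the lungs on day 7 and the difference of responses.

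The exception was the pancreas on day 14, where 3 of 77 genes were called, a smaller share than the 12.9% of all genes, and at an unadjusted p under 0.05 those higher were 2 and those lower 10, beside 28.6% of all genes. *Ndufa4* was at 134 and 109 CPM in the libraries labelled Smad4 off and 164, 183 and 174 CPM in those labelled on, a difference of 0.54 (SE 0.11, adjusted p = 0.0153). *Atp5d*, the delta subunit of the synthase stalk, was at 227 and 205 CPM against 171, 150 and 152 CPM (-0.43, SE 0.09, adjusted p = 0.0193). *Atp5g2* was at 27.4 and 32.6 CPM against 21.9, 18.5 and 22.3 CPM (-0.50, SE 0.13, adjusted p = 0.0473). The groups did not overlap for any of these 3 genes, which were picked by their p in this comparison, so that this is no separate evidence. The share of all genes without such overlap is not given here. With the mouse number as a block, or in a single fit of all 12 groups, 0 of the 77 were called, and leaving out single libraries gave 0 to 9 calls, with 0 without Smad4 off replicate 2, without Smad4 on replicate 2 or without Smad4 on replicate 3, 1 without Smad4 off replicate 1 and 9 without Smad4 on replicate 1.

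Between day 7 and day 14, 0 of the 77 genes were called at any site by edgeR or DESeq2 (beside 0.0057%, 0.0% and 0.0% of all genes in pancreas, liver and lungs in edgeR). At an unadjusted p under 0.05, 17 genes were higher on day 14 in the pancreas (beside 11.4% of all genes), 3 in the liver (8.88%) and 4 in the lungs (6.39%), where 1 was lower. The median difference was 0.25 in the pancreas, with 72 of 77 genes above 0, and 0.10 and 0.08 in liver and lungs. When the fit held only libraries without *mt-Co3* counts, which removes no pancreas library but changes the biological coefficient of variation of the fit from 0.372 to 0.224, 22 genes were called higher in the pancreas on day 14, beside 3.48% of all genes. In the same fit, 0 members were called for liver or lungs. The liver median turned to -0.03, with 31 of 77 genes above 0 and, at an unadjusted p under 0.05, 0 higher and 3 lower (beside 11.3% of all genes). The lung median rose to 0.27, with 44 genes higher and 0 lower at an unadjusted p under 0.05 (beside 15.4% of all genes). In the fit of all libraries, the lung median was -0.02 without lung library Smad4 on, day 7, replicate 1 and the liver median 0.01 without the paired-end library. Without liver library Smad4 off, day 7, replicate 1, 6 genes were called higher on day 14 in the liver, and without lung library Smad4 on, day 7, replicate 1, 1 was called lower in the lungs.

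**Figure D5:**
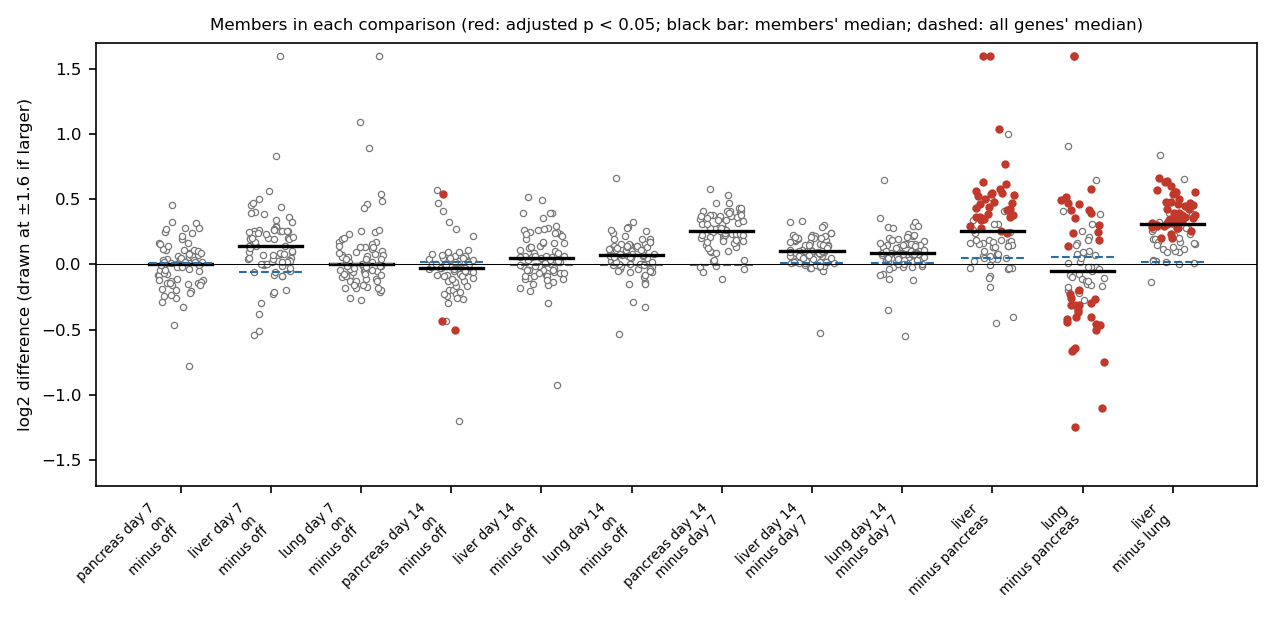
Log2 difference of each of the 77 genes (y axis, values beyond 1.6 drawn at 1.6) in 12 comparisons (x axis): label on minus off, day 14 minus day 7, and site against site. Red points have an adjusted p under 0.05, black bars are the members' medians and dashed lines the medians of all genes; 44 points are red in liver minus lungs and none in the day comparisons.

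Genes that work with the complexes were described from lists. Of 43 assembly factors tested between liver and lungs, 11 were higher in the liver and 0 lower (median 0.21), where 11.0% of all genes were higher, among them *Surf1*, needed to build complex IV (0.40, adjusted p = 0.000151). Of 7 electron carriers and subunits outside the naming rule, cytochrome *c1* (*Cyc1*, 0.21, adjusted p = 0.0326) and the synthase inhibitor *Atpif1* (0.51, adjusted p = 0.00655) were called higher beside the same 11.0%, and cytochrome *c* (*Cycs*) was at -0.01. Of 14 regulators, *Tfam* (0.30, adjusted p = 0.00177) and *Tfb1m* (0.44, adjusted p = 0.0035), which act in mitochondrial transcription and ribosome maturation, were higher in the liver, 2 of 14 beside the same share. The coactivator *Ppargc1a* was lower (-0.72, adjusted p = 0.0402), and *Nrf1* (-0.06, adjusted p = 0.416), *Gabpa* (-0.04, adjusted p = 0.758) and *Yy1* (0.09, adjusted p = 0.574) were not called. Of the 17 genes with the NRF1 letters in their promoter, 9 were called higher in liver than lung metastases, and of all 65 with a promoter 37 were.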

How the data were processed

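Poly(A)-selected RNA of sorted tumor cells was sequenced in 35 libraries, with single-end reads of 75 bases, except for 1 liver library labelled paired-end. The authors trimmed reads with Trimmomatic 0.36, checked them with FastQC 0.11.5, aligned them to GRCm38 (Ensembl release 91) with STAR 2.5.3a and counted them on genes with featureCounts 1.6.3, per the labels and the study's methods, and deposited whole-number counts for 53465 genes, not normalized. How reads with several matches were treated is not given in the sources used here. Libraries were grouped by the labels of site, day and *Smad4* status, and 0 count columns were left unmapped.

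Genes with low counts were removed by filterByExpr at its minimum of 10 counts (15 in total), library sizes were scaled by TMM, and genes were tested with the robust quasi-likelihood test of edgeR 4.0.16 in R 4.3.3, within a site and day for the label, within liver and lungs for the library set, and over all 35 libraries in 12 groups for site and day. P values were adjusted by Benjamini-Hochberg over all genes tested, and genes with an adjusted p under 0.05 were called. Levels are CPM after TMM scaling. Levels per kilobase used the exon length of the count table, which equals the union of annotated exons for 63 of 77 genes. Windows of 75 bases were compared exactly between annotated transcripts. The fits were tested on simulated counts. Summaries used Python 3.11.15 and plots matplotlib 3.10.9.

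The members and lists were chosen with earlier results of these data known. Named were the isoforms and catalytic or core subunits fixed as a list, up to 3 members per direction with the lowest p in each comparison with calls, and the 3 largest and 3 smallest ranges over libraries; others are said to be named after their values were seen. Some items are not reported here. Alternatives were DESeq2 1.42.0 and its size factors, no filter, a block for the mouse number, 1 fit of all 12 groups, the set of libraries with *mt-Co3* counts as a covariate or a restriction, and leaving out each library. Mouse numbers are shared between label groups. In the lungs on day 14, libraries with the same number deviated together in every pair (correlations 0.47, 0.51, 0.59 and 0.53 across genes), where numbers 3 and 4 are also the libraries with *mt-Co3* counts. At the other sites and times this was not the case for every pair, and numbers were not taken to pair the libraries.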

Additional observations from a re-analysis of the deposited data

Results flagged for a closer look

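In groups of 4 lung libraries, 18 values of named genes stood apart from the other libraries of their group by Dixon's test. The test was made for 126 combinations of a group with a named gene or the summed share. Genes of a library are not independent, so the number of flags cannot be set against a chance rate. Of the 18 values, 13 came from the lung library Smad4 off, day 7, replicate 4, the only one of its group with *mt-Co3* counts. For genes named by their difference between library sets or their range over libraries, a flag on this library is not a separate result. In CPM they were high for *Atp5g1* (99.6), *Atp5g2* (162), *Atp5l* (58.1), *Cox4i1* (533), *Cox5b* (168), *Cox6a1* (241), *Cox6c* (145), *Cox7a2l* (215), *Cox8a* (254), *Ndufb8* (80.3), *Ndufs5* (30.9) and *Ndufv1* (186), and low for *Ndufs1* (58.6). The nearest of the other libraries was, for example, at 3.1 CPM for *Atp5l*, 29.8 for *Atp5g2*, 308 for *Cox4i1* and 70.2 for *Ndufs1*. The other 5 values were in the lungs on day 14. They were *Atp5e* at 81.2 and *Uqcrfs1* at 90.8 CPM (low) in Smad4 off replicate 1, *Uqcr10* at 62.2 CPM (high) in Smad4 off replicate 2, *Uqcrc1* at 261 CPM (high) in Smad4 on replicate 1 and *Ndufa4l2* at 0.997 CPM (high) in Smad4 on replicate 4.

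For 4 of the 77 genes, a share no larger than the 6.33% of all genes called lower, the liver-lung difference itself differed between libraries with and without *mt-Co3* counts (edgeR, term for organ by library set). Over the 77 genes the median of this term was -0.37, against -0.03 over all genes, with 6 values above 0. The differences of differences were -0.67 for *Ndufs4*, -0.64 for *Ndufb7*, -0.72 for *Cox6c* and -0.61 for *Ndufa7* (adjusted p = 0.0381, 0.0425, 0.0447 and 0.0466), and with single-end libraries only they were -0.56, -0.55, -0.63 and -0.55, with none past the threshold.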

How the results depend on the processing

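Counts of called members were within 1.5 times of the reported ones in most alternatives, and the exceptions were as follows. In the pancreas on day 14, the 3 members called between labels became 7 with no low-count filter, beside 3102 of all 26176 genes. They became 0 in a single fit of 12 groups, beside 16 of all 17547 genes. That single fit called 3 liver and 1 lung member on day 7, in place of 0, beside 4350 and 18 of all 17547 genes. With libraries without *mt-Co3* counts only, the count rose from 32 to 55 for liver against pancreas and from 0 to 22 for day in the pancreas. With libraries with *mt-Co3* counts only, chosen after seeing the data, the count for liver against lungs was 4, or 9 with single-end libraries, and with single-end libraries the term for organ by set had 0. The single-end fit for liver against lungs had organ, day and label as separate terms in place of groups, and 75 of 77 differences above 0. It called 1482 of all 16868 genes higher. In the fit of the 10 libraries with *mt-Co3* counts, 55 of the 77 differences were above 0, against 76 in the main fit. Among named members called in the main fit, *Ndufb7* (-0.0704), *Ndufb8* (-0.00055), *Ndufs4* (-0.0955) and *Ndufv3* (-0.0289) changed sign in those 10 libraries. The cause was not tested. Leaving out single libraries gave 12 to 54 calls for liver against lungs, 25 to 42 for lungs against pancreas, 0 to 9 for the label in the pancreas on day 14, 0 to 3 for it in liver and 0 to 1 in lungs of day 7, 0 to 8 for the difference of responses on day 7, and 0 to 6 and 0 to 1 for day in liver and lungs.

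With the mouse number as a replicate block, 0 members were called in each label comparison, which changed the call only for the pancreas on day 14 (3 without the block). Over all genes, the block gave 204 calls in place of 4 in the lungs on day 14. Counts over all genes also depended on the tool: DESeq2 called 3775 genes in the liver on day 7, where edgeR called 71, and 1454 in the pancreas on day 7, where edgeR called 323. The covariate for *mt-Co3* counts could not be fitted for the label in the pancreas, where no library had such counts. Groups of 2 to 4 libraries and the counts of *Ndufa4l2*, at 1 to 66 per library, limit what these comparisons can show.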

Other observations

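The subunits encoded in mitochondrial DNA divided by gene rather than by complex. *mt-Co1*, *mt-Cytb*, *mt-Nd1*, *mt-Nd2*, *mt-Nd4*, *mt-Nd5* and *mt-Nd6* had counts in all 35 libraries, between 48746 and 424712 for *mt-Co1* and between 22389 and 235819 for *mt-Cytb*. *mt-Co2*, *mt-Co3*, *mt-Atp6*, *mt-Atp8* and *mt-Nd4l* had counts in 10 libraries and *mt-Nd3* in 13, with a highest count of 1264 for *mt-Co3*. Of the 19 mitochondrial genes tested between liver and lungs, 0 were called higher and 1 lower in edgeR, with *mt-Co1* at 0.25 (adjusted p = 0.242) and *mt-Cytb* at 0.29 (adjusted p = 0.221).

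Other genes of energy metabolism and protein synthesis were counted from lists in the same comparison of liver and lungs. Of 13 genes of the tricarboxylic acid cycle, 7 were higher in the liver and 0 lower (median 0.20), among them *Idh3a* (0.22, adjusted p = 0.00819), *Mdh2* (0.20, adjusted p = 0.0134) and fumarase *Fh1* (0.21, adjusted p = 0.0281), whereas citrate synthase *Cs* (0.11, adjusted p = 0.318) was not called. Of 77 mitochondrial ribosomal protein genes, 17 were higher and 0 lower (median 0.18), and of 89 cytosolic ribosomal protein genes 21 were higher and 0 lower (median 0.25). Of 16 entries for glycolysis genes, 0 were called in edgeR and 0 had an unadjusted p under 0.05 (median -0.05), with lactate dehydrogenase *Ldha* at 0.02 (adjusted p = 0.966). Between library sets, 65 of 88 cytosolic ribosomal protein genes and 8 of 16 glycolysis entries were higher in libraries with *mt-Co3* counts. All these counts stand beside 11.0% of all genes called higher in the liver and 16.6% called higher in the libraries with *mt-Co3* counts.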
